A study of Homo sapiens with 28 samples.

Results

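The hypoxia response of PC3 cells was compared, gene by gene, with that of LNCaP cells. For each gene the log2 change from normoxia to hypoxia in control PC3 cells was taken minus the same change in control LNCaP cells, on log2(RPKM + 0.1), and this value is called the difference here. RPKM are reads scaled to gene length and to the total of the library. A positive difference means a response that was higher in PC3, and a negative one a response that was higher in LNCaP. A gene was a member if 2 or more of the 8 libraries of PC3, and likewise of LNCaP, reached 1 RPKM, which held for 10949 of the 19662 gene symbols in both tables. A further 1265 symbols reached that limit only in PC3 and 1335 only in LNCaP.

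Both lines are established human prostate cancer lines. PC3 has features of small cell neuroendocrine carcinoma, whereas LNCaP is an adenocarcinoma line. The comparison used 8 RNA-Seq libraries in 4 groups of 2, namely PC3 transfected with a control siRNA (siCtrl) and LNCaP carrying an empty vector (EV), each in normoxia and in a hypoxia chamber at 0.2% O2. The other 8 RNA-Seq libraries, PC3 with siRNAs against ONECUT2 (siOC2) and LNCaP with a Flag-tagged ONECUT2 vector (OC2), served as a separate set of libraries at the same oxygen levels. The duration of hypoxia behind these libraries was not given in the sources used here. Each line has its own table, its own vector or transfection and its own culture, so none of these can be told apart from the line. Levels of a gene are therefore given for each line but were not tested between lines. Nothing in the labels says that libraries of a group came from separate cultures, so p-values measure only the spread between these libraries, which may be technical.

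Cells sense oxygen through prolyl hydroxylases (EGLN1, EGLN2 and EGLN3), which mark the alpha subunits of hypoxia-inducible factor (HIF1A and EPAS1, also called HIF2A) for destruction by the VHL protein. When oxygen is low the alpha subunits persist, pair with ARNT and bind short DNA motifs with the core ACGTG or GCGTG near their targets. The targets raise glucose uptake and glycolysis, carbon dioxide hydration and acid export, collagen crosslinking and vessel growth, and they clear mitochondria.

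The labels of the lines held in the libraries. All 8 LNCaP markers were higher in every LNCaP library than in every PC3 library, and all 8 PC3 markers, such as CD44 and CAV1, were higher in every PC3 library. Relative depth, which the spacing of the lowest RPKM gives, was lowest in PC3 hypoxia replicate 2 (0.382 of PC3 normoxia replicate 2) and PC3 normoxia replicate 1 (0.418), and lay between 0.8 and 1 of LNCaP normoxia replicate 2 in LNCaP. The median SD between libraries of a group was 0.192 (log2) in PC3 and 0.128 in LNCaP. Exact 0 values stood in 67 members, and in 10 of them a whole group was listed at 0, among them MT-CO1, MT-CO3 and MT-ND4 in normoxic LNCaP. Such genes stay in the counts and are not named as responses.

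A response or a difference was called at a fold over 2 and an unadjusted limma P under 0.05. In PC3 cells 282 members (2.58%) rose and 317 (2.9%) fell in hypoxia, and in LNCaP cells 540 (4.93%) rose and 203 (1.85%) fell. The difference was called for 957 members (8.74%), higher in PC3 for 258 (2.36%) and higher in LNCaP for 699 (6.38%). Of these, 159 (1.45%) and 407 (3.72%) also had an adjusted p under 0.05. Each count of list members with a called difference below is to be read beside the 8.74% of all members. Counts of list members that rose or fell in 1 line are to be read beside the shares given above for that line. An unadjusted limma P under 0.05 for the difference, without the fold limit, held for 24% of all members. In total 695 members (6.35%) had an adjusted p under 0.05 for the difference, and that number was 94 in a fit to all 16 libraries and 1171 with a separate fit for each line. For 40.3% of members the hypoxia-minus-normoxia changes of all library pairs of 1 line lay outside the range of the other line. The median difference over all members was -0.096, so that most members had a negative difference. Counts below of list members with a positive or negative difference are to be read beside that. The median was -0.010 without PC3 normoxia replicate 2 and -0.183 without PC3 hypoxia replicate 1, and without PC3 normoxia replicate 2 the count of differences higher in PC3 was 409. Without PC3 hypoxia replicate 1, 544 members were called lower in hypoxic PC3, and without LNCaP normoxia replicate 1, 312 were called lower in hypoxic LNCaP.

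Of the members that rose, 122 rose in both lines, 43.3% of those in PC3 and 22.6% of those in LNCaP. Among the 122, the difference was not called for 99, was higher in PC3 for 9 and higher in LNCaP for 14. Of the members that fell, 23 fell in both lines, 7.26% of those in PC3 and 11.3% of those in LNCaP. Genes are named line-selective here only where 1 line was called, the other was not and the difference itself was called in the same direction. By that rule 77 members rose and 130 fell selectively in PC3, and 261 rose and 79 fell selectively in LNCaP. Without PC3 normoxia replicate 2, 136 members rose selectively in PC3. Another 229 members called in PC3 alone and 240 called in LNCaP alone had no called difference, so a response in 1 line alone does not make them selective. Calls of opposite sign were made for 18 members. Across the 10949 members the responses of both lines correlated at a Pearson r of 0.237 and a Spearman rho of 0.319, a description across genes, which are not independent replicates.

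**Figure D1:**
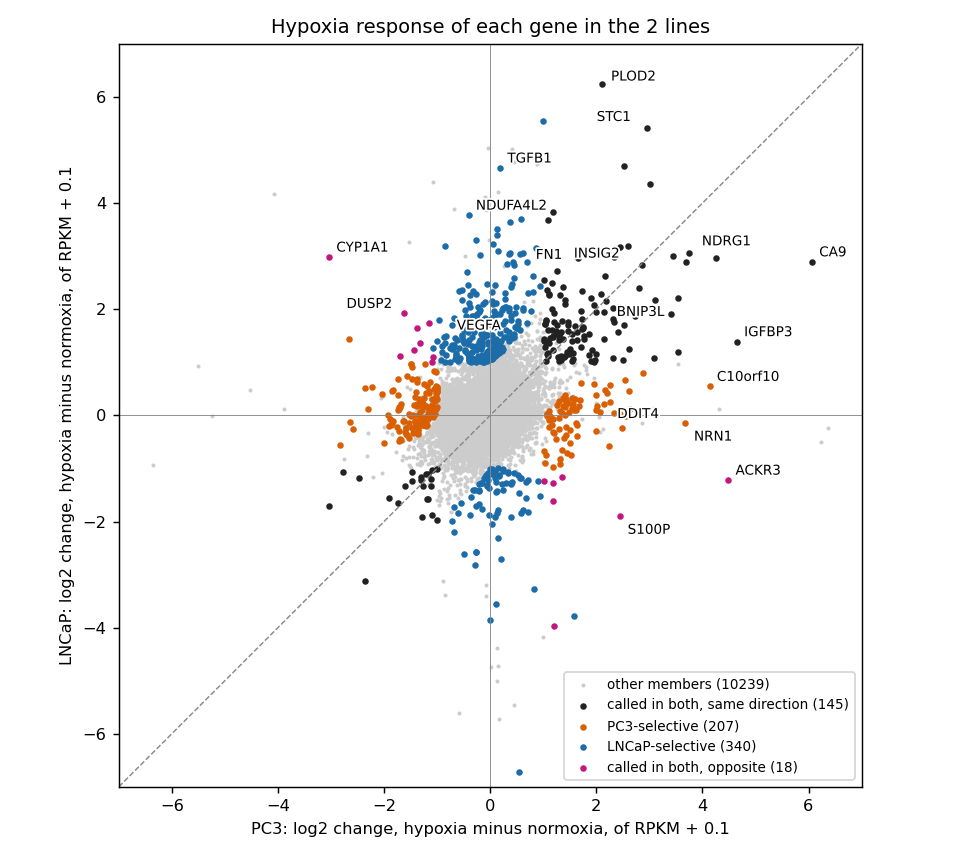
Log2 change from normoxia to hypoxia of RPKM + 0.1 in PC3 (horizontal axis) and LNCaP (vertical axis), 1 point for each member, coloured by response class, with the dashed line marking equal responses. CA9 (6.07 in PC3, 2.90 in LNCaP) lies far below the line and PLOD2 (2.11 and 6.24) far above it, while CYP1A1 and ACKR3 stand in opposite quadrants. 8 genes lie outside the axes, which end at 7.

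Among the genes that rose in both lines, CA9, INSIG2, NDRG1, PPFIA4, SCNN1G and STC1 had the highest responses in whichever line responded less. NDRG1, a stress-induced gene that is widely used as a hypoxia marker, had 176 and 192 RPKM in normoxic and 3713 and 3360 RPKM in hypoxic PC3, against 131 and 136 RPKM in normoxia and 1089 and 997 RPKM in hypoxia for LNCaP. Hypoxic libraries stood at least 5 times above normoxic ones in both lines, and the log2 response was 4.26 in PC3 and 2.97 in LNCaP, a difference of 1.30 (SE 0.19, limma adjusted p = 0.00567) that was not called in the fit to all 16 libraries. INSIG2, which holds the sterol sensor SCAP in the endoplasmic reticulum, rose from 2.77 and 4.45 to 29.4 and 23.6 RPKM in PC3 and from 8.71 and 8.10 to 65.0 and 56.7 RPKM in LNCaP. Its responses of 2.87 and 2.84 differed by 0.03 (SE 0.31), which was not called. SCNN1G, a subunit of the epithelial sodium channel, rose by 3.70 in PC3 and by 2.90 in LNCaP, and that difference of 0.80 (SE 0.34) was not called. With a pseudocount of 1 it was 1.08 and called. Its normoxic values were 1.10 and 0.878 RPKM in PC3 and 0.471 and 0.499 RPKM in LNCaP.

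STC1, a secreted glycoprotein of calcium and phosphate handling, was the shared gene furthest toward LNCaP among these 6. It had 0.864 and 0.758 RPKM in normoxic and 39.6 and 37.7 RPKM in hypoxic LNCaP, and 8.99 and 9.87 RPKM in normoxia and 81.6 and 67.2 RPKM in hypoxia for PC3. No hypoxic library overlapped a normoxic one in either line. The log2 response was 5.41 in LNCaP and 2.96 in PC3, a difference of -2.45 (SE 0.23, limma adjusted p = 6.47e-04). PPFIA4, a liprin of synaptic scaffolds, rose by 4.35 in LNCaP and 3.02 in PC3, a called difference of -1.33 (SE 0.39) whose limma adjusted p was 0.0771.

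The 4 genes with the largest shared decrease were ETNPPL, RAB3IL1, SYBU and ZMYM6NB. RAB3IL1, a guanine nucleotide exchange factor for RAB3A, fell by 3.04 in PC3 and by 1.72 in LNCaP on the log2 scale. SYBU, a kinesin linker protein, fell from 5.33 and 5.17 to 1.62 and 1.08 RPKM in PC3 and from 6.6 and 10.3 to 2.80 and 2.67 RPKM in LNCaP. Differences of ETNPPL, SYBU and ZMYM6NB lay between -0.35 and 0.76 and were not called. That of RAB3IL1, -1.32 (SE 0.58), was called but was lost without PC3 normoxia replicate 1, PC3 normoxia replicate 2, PC3 hypoxia replicate 1, PC3 hypoxia replicate 2, LNCaP normoxia replicate 2 or LNCaP hypoxia replicate 2, and it ranged from -1.87 to -0.77 over the 8 fits that each left out 1 library. Nor was it called with a pseudocount of 1.

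The list of HIF subunits and oxygen sensors held 9 members, of which 3 (EPAS1, EGLN1 and EGLN3) rose in both lines and the other 6 were called in neither. The difference was called for 3 of the 9, beside 8.74% of all members, and not for the other 6. EGLN3, the hydroxylase most strongly induced by HIF, rose from 7.20 and 5.13 to 36.1 and 33.1 RPKM in LNCaP and from 1.31 and 1.80 to 3.69 and 3.42 RPKM in PC3. Its responses were 2.49 and 1.16, a difference of -1.33 (SE 0.31, limma adjusted p = 0.0362), and the PC3 response was no longer called without PC3 normoxia replicate 1. HIF1A had 365 and 480.1 RPKM in normoxic and 241 and 185 RPKM in hypoxic PC3, a change of -0.99 that was not called, and 224 and 193 RPKM in normoxia and 221 and 235 RPKM in hypoxia for LNCaP. The PC3 groups do not overlap, while those of LNCaP do. The difference of HIF1A was -1.12 (SE 0.26, limma adjusted p = 0.0348), and its call was lost without PC3 normoxia replicate 2 or PC3 hypoxia replicate 2, with a range of -1.32 to -0.92 over the 8 fits. ARNT2, a partner subunit, differed by -1.18 (SE 0.43), with a call that was lost without PC3 normoxia replicate 2, PC3 hypoxia replicate 2, LNCaP normoxia replicate 1 or LNCaP hypoxia replicate 1 (range -1.59 to -0.76). EPAS1 and EGLN1 rose by 1.02 and 1.72 in PC3 and by 1.40 and 1.97 in LNCaP, with differences of -0.38 (SE 0.32) and -0.25 (SE 0.27) that were not called.

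The HIF target list held 30 genes, of which 26 were members. In PC3 24 of the 26 rose and in LNCaP 23, 22 of them in both lines, with median log2 responses of 2.16 and 2.09 against medians over all members of -0.07 and 0.03. Their differences had a list median of 0.10, and 17 of the 26 were positive. The difference was called for 9 of the 26, higher in PC3 for CA9, DDIT4, LOX and NDRG1 and higher in LNCaP for EGLN3, PFKFB3, PLOD2, PPFIA4 and VEGFA. Without PC3 normoxia replicate 2 the list median was 0.31. BNIP3L, which recruits autophagosomes to mitochondria, was one of the 17 not called, with responses of 2.18 and 2.15 and a difference of 0.03 (SE 0.24). KDM3A, a histone demethylase that needs oxygen, rose by 1.75 and 1.67, a difference of 0.08 (SE 0.25). BHLHE40, a transcriptional repressor of the clock, rose by 2.80 and 2.4. Other listed targets, among them ADM and ANGPTL4, did not reach the limit in LNCaP. ANGPTL4, an inhibitor of lipoprotein lipase, had 3.22 and 1.87 RPKM in normoxic and 202 and 192 RPKM in hypoxic PC3, and 0.598 and 0.401 RPKM in normoxia and 0.734 and 0.687 RPKM in hypoxia for LNCaP.

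CA9, the membrane carbonic anhydrase, had the largest difference among the targets that were higher in PC3. It lies on chromosome 9 from 35673925 to 35681156 of GRCh37. It had 0.938 and 0.386 RPKM in normoxic and 50.01 and 45.1 RPKM in hypoxic PC3, and 0.473 and 0.531 RPKM in normoxic and 5.38 and 3.56 RPKM in hypoxic LNCaP. Normoxic libraries of both lines were below 1 RPKM, and all hypoxic libraries were above them. The response was 6.07 in PC3 and 2.90 in LNCaP, a difference of 3.17 (SE 0.48, limma adjusted p = 0.0066). DDIT4, an inhibitor of mTOR signaling, rose from 6.45 and 6.09 to 30.5 and 30.2 RPKM in PC3, whereas LNCaP had 79.8 and 91.4 RPKM in normoxia and 108 and 96.7 RPKM in hypoxia, groups that do not overlap but differ by less than 2-fold. Its difference was 2.0 (SE 0.20, limma adjusted p = 8.17e-04).

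PLOD2, the lysyl hydroxylase of collagen telopeptides on chromosome 3 from 145752926 to 145881512 of GRCh37, had the largest difference among the targets that were higher in LNCaP. In LNCaP it rose from 7.36 and 3.38 RPKM to 397 and 375 RPKM, and in PC3 from 50.4 and 62.1 RPKM to 286 and 204 RPKM. Hypoxic levels were high in both lines, and the normoxic level was low in LNCaP only. Its responses were 6.24 and 2.11, a difference of -4.14 (SE 0.44, limma adjusted p = 0.00116). PFKFB3, which makes the activator of phosphofructokinase, rose by 2.96 in LNCaP and 1.65 in PC3, a difference of -1.31 (SE 0.24, limma adjusted p = 0.0158). For VEGFA, the main vessel growth factor, the values were 122 and 124 RPKM in normoxia and 445 and 370.0 RPKM in hypoxia for LNCaP, and 138 and 169.9 RPKM in normoxia and 238 and 205 RPKM in hypoxia for PC3. The response was called in LNCaP (1.72) and not in PC3 (0.53), with a difference of -1.19 (SE 0.22, limma adjusted p = 0.0181) that was not called in the fit to all 16 libraries.

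Promoter sequences of CA9, PLOD2, INSIG2 and CYP1A1 are shown because these genes stand for a response that was larger in PC3, larger in LNCaP, without a called difference and opposite in sign. Each runs 5′ to 3′ on the strand of the gene from 250 bases before to 50 after its start, from RefSeq on GRCh38.p14, a different build from the GRCh37 coordinates in the rest of the text. Capitals mark each ACGTG or GCGTG on either strand, so that CACGT and CACGC are the same cores read on the opposite strand.
CA9, chr9:35673678-35673977, plus strand: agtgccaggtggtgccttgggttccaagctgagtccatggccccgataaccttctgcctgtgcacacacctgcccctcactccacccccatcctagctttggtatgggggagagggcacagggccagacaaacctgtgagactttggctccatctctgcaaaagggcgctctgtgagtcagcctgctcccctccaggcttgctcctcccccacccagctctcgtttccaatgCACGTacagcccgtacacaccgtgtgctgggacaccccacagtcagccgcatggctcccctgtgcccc
PLOD2, chr3:146161135-146161434, minus strand: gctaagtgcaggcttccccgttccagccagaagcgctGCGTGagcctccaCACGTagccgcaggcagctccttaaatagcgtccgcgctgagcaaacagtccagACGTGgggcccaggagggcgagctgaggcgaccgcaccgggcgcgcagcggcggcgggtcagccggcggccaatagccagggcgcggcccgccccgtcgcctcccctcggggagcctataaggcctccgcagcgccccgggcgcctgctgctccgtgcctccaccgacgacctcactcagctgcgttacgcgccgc
INSIG2, chr2:118088221-118088520, plus strand: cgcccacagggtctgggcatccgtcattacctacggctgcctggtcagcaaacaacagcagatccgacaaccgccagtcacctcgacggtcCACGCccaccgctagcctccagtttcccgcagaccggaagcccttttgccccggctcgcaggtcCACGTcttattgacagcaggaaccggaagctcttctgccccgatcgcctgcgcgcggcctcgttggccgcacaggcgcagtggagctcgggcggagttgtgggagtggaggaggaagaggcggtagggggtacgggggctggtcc
CYP1A1, chr15:74725479-74725778, minus strand: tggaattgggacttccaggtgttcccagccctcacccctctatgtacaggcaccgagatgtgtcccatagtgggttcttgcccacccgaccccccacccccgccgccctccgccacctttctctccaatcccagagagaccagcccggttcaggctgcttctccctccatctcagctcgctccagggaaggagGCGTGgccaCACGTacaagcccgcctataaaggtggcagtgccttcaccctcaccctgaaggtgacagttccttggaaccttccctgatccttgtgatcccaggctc
These windows hold 1 core in CA9, 3 in PLOD2, 2 in INSIG2 and 2 in CYP1A1.

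RefSeq promoters were matched for 8877 of the 10949 members, by current or older symbol, using the first one listed for a gene. ACGTG stood on either strand in 27.7% of them, and ACGTG or GCGTG in 65.1%. Among members that rose in both lines, ACGTG was found in 38 of 96 promoters (39.6%), and in the HIF target list in 11 of 22 (50%). It stood in 16 of 56 (28.6%) promoters of genes that rose selectively in PC3 and in 36 of 197 (18.3%) of those that rose selectively in LNCaP. With GCGTG added, the share was 81.8% for the HIF target list, beside 65.1% of all matched members. It was 58.3% for genes that rose in both lines, which is below that of all members. For selective increases it was 64.3% in PC3 and 56.9% in LNCaP. A match is a run of letters and not a binding site, and these shares were not tested.

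Glycolysis genes rose in both lines. Of 20 members, 14 rose in PC3 and the same 14 were among the 17 that rose in LNCaP, with median responses of 1.2 and 1.59. The difference was negative for 18 of the 20, with a median of -0.30 against -0.096 over all members. It was called for 2 of the 20, near the 8.74% of all members. PFKP, the platelet phosphofructokinase, rose from 31.3 and 42.7 to 198 and 194 RPKM in LNCaP and from 44 and 43.4 to 127 and 102 RPKM in PC3. Its difference of -1.04 (SE 0.25, limma adjusted p = 0.0383) was no longer called without PC3 hypoxia replicate 2 or LNCaP normoxia replicate 1, with a range of -1.26 to -0.82. ALDOC, an aldolase isoform, went the other way, with 2.83 and 2.05 RPKM in normoxia and 13.8 and 14.7 RPKM in hypoxia for PC3, and 29.8 and 50.7 RPKM in normoxia and 79.6 and 81.5 RPKM in hypoxia for LNCaP. That was a difference of 1.46 (SE 0.34, limma adjusted p = 0.0376), although the LNCaP response of 1.05 was not called without LNCaP normoxia replicate 1. ENO2, the gamma enolase, was one of the 18 not called, with responses of 2.33 in PC3 and 2.99 in LNCaP. Its difference of -0.65 (SE 0.43) was -0.06 without LNCaP normoxia replicate 1, and it was -1.25 and called without LNCaP normoxia replicate 2.

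Glycogen genes had 12 members, of which 5 rose in PC3 and 3 in LNCaP, 2 of them in both. GBE1, the branching enzyme, rose by 1.85 and 1.53. The difference was called for 2 of the 12, beside 8.74% of all members. These were UGP2, which makes UDP-glucose, at 1.07 (SE 0.24), and PPP1R3B, a glycogen-targeting phosphatase subunit, at 1.09 (SE 0.30). UGP2 was lost without PC3 normoxia replicate 1 or LNCaP normoxia replicate 1 (range 0.84 to 1.31) and PPP1R3B without PC3 normoxia replicate 1 (range 1.00 to 1.17). PPP1R3B was also not called with a pseudocount of 1, where its difference was much smaller. Of 11 carbonic anhydrases and pH transporters, the difference was called for 4, among them CA9 upward and CA11 and SLC4A2 downward. SLC4A2, an anion exchanger, differed by -1.14 (SE 0.24), a call lost without PC3 hypoxia replicate 2 or LNCaP normoxia replicate 1 (range -1.33 to -0.95). CA11 differed by -2.06 (SE 0.74) and was lost without PC3 normoxia replicate 1, PC3 hypoxia replicate 1 or LNCaP normoxia replicate 1 (range -2.96 to -1.15).

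Of 11 collagen-modifying enzymes, 5 rose in PC3 and 5 in LNCaP, 4 of them in both. The difference was called for 5, beside 8.74% of all members. It was higher in PC3 for 2 and higher in LNCaP for 3, and was not called for the other 6. LOX, the copper enzyme that crosslinks collagen, had 1.01 and 0.701 RPKM in normoxia and 10.9 and 10.9 RPKM in hypoxia for PC3, and 0.511 and 0.646 RPKM in normoxia and 3.25 and 2.86 RPKM in hypoxia for LNCaP, and rose in both lines with a difference of 1.32 (SE 0.34, limma adjusted p = 0.0526). LOXL2 had 21.5 and 23.1 RPKM in normoxia and 37.2 and 30.5 RPKM in hypoxia for PC3, and 1.16 and 0.883 RPKM in normoxia and 0.431 and 0.692 RPKM in hypoxia for LNCaP. Neither of its responses was called, but they went in opposite directions, with a difference of 1.37 (SE 0.33, limma adjusted p = 0.0418). With a pseudocount of 1 it was 0.95 and not called. PLOD1 differed by -1.09 (SE 0.21), along with PLOD2 in the direction of LNCaP. LOXL3 differed by -1.14 (SE 0.44), a call that was lost without PC3 normoxia replicate 1, PC3 normoxia replicate 2, PC3 hypoxia replicate 2, LNCaP normoxia replicate 2 or LNCaP hypoxia replicate 1 (range -1.51 to -0.77).

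Angiogenic ligands had only 6 members, since 9 of the listed genes did not reach the limit in both lines. None rose in both lines. PDGFA and PDGFB, the chains of platelet-derived growth factor, rose in PC3 alone. PDGFB had 3.88 and 3.77 RPKM in normoxic and 15.1 and 16.3 RPKM in hypoxic PC3, against 3.57 and 3.94 RPKM in normoxia and 3.93 and 4.65 RPKM in hypoxia for LNCaP. Its difference was 1.82 (SE 0.24, limma adjusted p = 0.00379). PDGFA had responses of 1.43 and -0.38 and a difference of 1.81 (SE 0.31, limma adjusted p = 0.0112). The third called member was VEGFA, in the other direction.

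The 8 largest differences higher in PC3, among genes without an exact 0, with a mean of at least 1 RPKM and with library-pair changes that do not overlap between the lines, were those of ACKR3, S100P, CTC-429P9.4, TVP23C-CDRT4, NRN1, C10orf10, IGFBP3 and CA9. NRN1, which encodes neuritin, a surface protein of neurite growth, lies on chromosome 6 from 5998232 to 6007838 of GRCh37. It had 0.252 and 0.220 RPKM in normoxic and 4.38 and 3.98 RPKM in hypoxic PC3, and 13.1 and 15.0 RPKM in normoxia and 13 and 12.5 RPKM in hypoxia for LNCaP. Hypoxic PC3 libraries stood far above the normoxic ones, whereas the LNCaP libraries all lay between 12.5 and 15.0 RPKM, and the difference was 3.81 (SE 0.26, limma adjusted p = 6.49e-05). C10orf10, now named DEPP1 and located on chromosome 10 from 45466429 to 45474257 of GRCh37, had 3.72 and 5.28 RPKM in normoxia and 81.7 and 77.6 RPKM in hypoxia for PC3, and 0.416 and 0.396 RPKM in normoxia and 0.646 and 0.634 RPKM in hypoxia for LNCaP. Its LNCaP response of 0.55 was not called, at levels under 1 RPKM, and the difference was 3.59 (SE 0.30, limma adjusted p = 3.16e-04). It overlaps RASSF4 on the opposite strand, and the counting's use of strand was not stated.

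IGFBP3, a carrier of insulin-like growth factors on chromosome 7 from 45951844 to 45961473 of GRCh37, rose in both lines but by unequal amounts. Its RPKM went from 7.64 and 9.31 to 244 and 188 in PC3 and from 61.6 and 47.3 to 131 and 154 in LNCaP. Responses were 4.65 and 1.39, a difference of 3.26 (SE 0.27, limma adjusted p = 3.16e-04). The unnamed transcript CTC-429P9.4 and the readthrough gene TVP23C-CDRT4, which shares sequence with TVP23C and CDRT4, fell in LNCaP to 0.307 RPKM or less and did not pass the test in PC3. Values below the pseudocount set both differences (4.10 and 3.86), which were 2.05 and 1.25 with a pseudocount of 1.

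By the same limits, the 8 largest differences higher in LNCaP were those of CYP1A1, AL035252.1, TGFB1, NDUFA4L2, PLOD2, ZCCHC18, RAB31 and ADAM28. NDUFA4L2, a subunit-like protein of mitochondrial complex I or IV that HIF induces, had 14.7 and 30.0 RPKM in normoxic and 291 and 287 RPKM in hypoxic LNCaP. PC3 had 0.515 and 0.106 RPKM in normoxia and 0.118 and 0.232 RPKM in hypoxia, all below 1 RPKM, so the gene reached the limit for PC3 only through the siOC2 libraries. The LNCaP groups stand far apart and the PC3 groups overlap. Its difference was -4.18 (SE 0.68, limma adjusted p = 0.00934), on chromosome 12 from 57628686 to 57634498 of GRCh37, where it overlaps SHMT2 on the opposite strand.

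TGFB1, the ligand of the TGF-beta receptors, was listed at 0.0155 and 0.0891 RPKM in normoxic and 4.52 and 2.94 RPKM in hypoxic LNCaP, with 2.81 and 4.25 RPKM in normoxia and 4.03 and 3.88 RPKM in hypoxia for PC3. Both normoxic LNCaP values are under the pseudocount, and the difference of -4.48 (SE 0.47, limma adjusted p = 0.00116) was -2.0 with a pseudocount of 1. AL035252.1, a transcript with no current name in the annotation used, was below 0.01 RPKM in both normoxic LNCaP libraries and at 5.93 and 3.52 RPKM in hypoxia. PC3 had 20.5 and 30.1 RPKM in normoxia and 56.4 and 43.7 RPKM in hypoxia, and the difference of -4.55 (SE 0.39) was -1.51 with a pseudocount of 1. RAB31, a small GTPase of membrane traffic, rose from 1.51 and 0.347 to 8.21 and 7.17 RPKM in LNCaP and had 4.50 and 3.95 RPKM in normoxia and 3.23 and 1.63 RPKM in hypoxia for PC3. ADAM28, a membrane metalloprotease, rose from 0.516 and 0.499 to 4.44 and 7.83 RPKM in LNCaP, with 1.08 and 0.588 RPKM in normoxia and 0.791 and 0.527 RPKM in hypoxia for PC3. Both had an adjusted p under 0.05 with limma (0.0153 and 0.00589). ZCCHC18 did not (0.0903), and its PC3 response was not called without PC3 normoxia replicate 1 or PC3 hypoxia replicate 2.

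Opposite responses were called for 18 members, 15 of them with no exact 0 and a mean of at least 1 RPKM. Of the 15, 6 rose in PC3 and fell in LNCaP and 9 did the reverse. All 15 had an adjusted p under 0.05 for the difference. That follows largely from the selection, since both responses had to be called in opposite directions in the same fit. Without PC3 hypoxia replicate 1, 30 members had opposite calls. ACKR3, a receptor that scavenges the chemokine CXCL12, lies on chromosome 2 from 237476430 to 237490997 of GRCh37. It rose from 1.28 and 2.23 to 36.6 and 44 RPKM in PC3 and fell from 57.3 and 73.7 to 28.5 and 27.2 RPKM in LNCaP, responses of 4.49 and -1.22. Groups do not overlap in either line. The difference was 5.71 (SE 0.34, limma adjusted p = 2.43e-05). S100P, a calcium-binding protein, had 0.166 and 0.188 RPKM in normoxia and 1.15 and 1.75 RPKM in hypoxia for PC3, and 20.4 and 22.9 RPKM in normoxia and 6.22 and 5.33 RPKM in hypoxia for LNCaP, a difference of 4.35 (SE 0.34, limma adjusted p = 2.09e-04).

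CYP1A1, a monooxygenase that the aryl hydrocarbon receptor induces, was the largest in the reverse direction. It lies on chromosome 15 from 75011883 to 75017877 of GRCh37. In PC3 it fell from 3.39 and 4.79 to 0.620 and 0.253 RPKM and in LNCaP it rose from 1.36 and 1.52 to 13.3 and 10.9 RPKM. Responses were -3.04 and 2.98, a difference of -6.02 (SE 0.47, limma adjusted p = 2.09e-04). ID3, a helix-loop-helix inhibitor, went from 38.1 and 29.7 to 16.7 and 13.7 RPKM in PC3 and from 20.7 and 22.5 to 72.3 and 71.8 RPKM in LNCaP, although the PC3 call was lost without PC3 normoxia replicate 1. SPARC, a matrix glycoprotein, went from 8.0 and 9.11 to 3.17 and 3.29 RPKM and from 0.252 and 0.337 to 1.23 and 1.04 RPKM. DUSP2, a phosphatase of MAP kinases, fell from 1.78 and 0.735 to 0.310 and 0.306 RPKM in PC3 and rose from 1.87 and 2.25 to 7.68 and 8.45 RPKM in LNCaP.

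The lists of lipid droplet, sterol synthesis and fatty acid synthesis genes held 1 member each called for the difference, beside 8.74% of all members. Lipid droplet genes had 8 members, of which only HILPDA, an inhibitor of lipolysis, was called for the difference. HILPDA rose from 6.83 and 9.47 to 105 and 84.1 RPKM in PC3 and from 22.4 and 21.6 to 53.4 and 47.6 RPKM in LNCaP, a difference of 2.34 (SE 0.26, limma adjusted p = 0.0016). Of 23 sterol synthesis genes, SQLE, the squalene epoxidase, differed by 1.06 (SE 0.26), a call lost without PC3 normoxia replicate 1, PC3 hypoxia replicate 1, LNCaP normoxia replicate 1 or LNCaP hypoxia replicate 1 (range 0.87 to 1.25), and STARD4, a sterol carrier, rose in both lines, its PC3 call being lost without PC3 normoxia replicate 1. ELOVL5, a fatty acid elongase and 1 of 12 fatty acid synthesis genes, rose from 678 and 624 to 1369 and 1489 RPKM in LNCaP and had 69.9 and 72.1 RPKM in normoxia and 69.3 and 58.8 RPKM in hypoxia for PC3. Its difference was -1.29 (SE 0.19, limma adjusted p = 0.00647).

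Nuclear genes of the respiratory chain had 62 members with median responses of -0.12 in PC3 and -0.31 in LNCaP. The difference was positive for 42 of the 62 and called for NDUFA4L2 alone. The list median of 0.27 was 0.04 without LNCaP normoxia replicate 2. Among 11 mitophagy and autophagy genes, only TFEB, a regulator of lysosome genes, had a called difference, -1.59 (SE 0.56), and it was lost without PC3 hypoxia replicate 2 or LNCaP normoxia replicate 2 (range -2.35 to -0.83). None of the 16 Jumonji demethylases was called for the difference, and 7 of them had a positive one. In the fit of each line, 2 rose in PC3 and 2 in LNCaP. Of the 16, 3 had an unadjusted limma P under 0.05 for the difference, beside 24% of all members, and 0 an adjusted one.

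Integrated stress response genes, which ATF4 drives when translation is curbed, had 21 members with median responses of -0.18 in PC3 and -0.73 in LNCaP. In LNCaP 5 fell and 1 rose, and in PC3 2 fell and 2 rose. The difference was positive for 16 of the 21, with a list median of 0.50 (0.74 without LNCaP normoxia replicate 1, 0.21 without LNCaP normoxia replicate 2). TRIB3, a pseudokinase that ATF4 induces, had 4.48 and 5.21 RPKM in normoxia and 9.58 and 9.88 RPKM in hypoxia for PC3, and 16 and 28.7 RPKM in normoxia and 12.2 and 11 RPKM in hypoxia for LNCaP, a difference of 1.88 (SE 0.35, limma adjusted p = 0.0168). ATF5 fell in LNCaP from 31.9 and 47.1 to 14.7 and 15.3 RPKM and differed by 1.33 (SE 0.27, limma adjusted p = 0.0244). SESN2 differed by 1.15 (SE 0.39), a call lost without PC3 normoxia replicate 1 or LNCaP normoxia replicate 2 (range 0.79 to 1.51). VLDLR, which also sits among the HIF targets, rose in both lines by 2.32 and 2.02. For 18 endoplasmic reticulum chaperones no difference was called, although 16 of the 18 were positive with a median of 0.58, and 2 had an adjusted p under 0.05.

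Among 17 p53 targets the difference was called for 2, ZMAT3 and RRM2B, both toward LNCaP, beside 8.74% of all members called in either direction. ZMAT3, an RNA-binding zinc finger protein, had 4.99 and 3.95 RPKM in normoxia and 10.8 and 10.5 RPKM in hypoxia for LNCaP, and 1.92 and 1.83 RPKM in normoxia and 0.989 and 1.21 RPKM in hypoxia for PC3, a difference of -1.97 (SE 0.29, limma adjusted p = 0.00589). RRM2B, a ribonucleotide reductase subunit, differed by -1.72 (SE 0.35, limma adjusted p = 0.0237), with an LNCaP call that was lost without LNCaP normoxia replicate 2 or LNCaP hypoxia replicate 1. Of 20 NRF2 targets 2 were called, AKR1C3 and AKR1C1, likewise near the 8.74% of all members. These aldo-keto reductases are related in sequence, and the counting could split reads between them. AKR1C3 rose from 0.288 and 0.660 to 4.88 and 4.55 RPKM in LNCaP and differed by -2.29 (SE 0.48, limma adjusted p = 0.0253), or -1.34 with a pseudocount of 1. AKR1C1 differed by -1.36 (SE 0.54) and was lost without PC3 normoxia replicate 2, PC3 hypoxia replicate 2, LNCaP normoxia replicate 2, LNCaP hypoxia replicate 1 or LNCaP hypoxia replicate 2 (range -1.82 to -0.91). SLC7A11, the cystine transporter, fell in both lines, by 1.12 and 1.19 on the log2 scale, the PC3 call being lost without PC3 normoxia replicate 1 or PC3 hypoxia replicate 2. MT1G, 1 of 4 metallothionein members and likewise a multigene family, fell from 14.2 and 12.9 to 2.43 and 1.94 RPKM in LNCaP, with 3.23 and 2.05 RPKM in normoxia and 1.98 and 2.30 RPKM in hypoxia for PC3 and a difference of 2.32 (SE 0.35, limma adjusted p = 0.00613).

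Interferon-stimulated genes had 22 members, of which none rose in either line, 2 fell in PC3 and 4 fell in LNCaP. Median responses were -0.36 and -0.65. The difference was called for 4 of the 22, each higher in PC3, beside 2.36% of all members in that direction. These were OAS2, MX2, OASL and IFI27. OAS2, a sensor of double-stranded RNA, fell from 12.4 and 12.3 to 1.74 and 2.14 RPKM in LNCaP and had 2.4 and 4.88 RPKM in normoxia and 2.63 and 2.21 RPKM in hypoxia for PC3, a difference of 2.12 (SE 0.42, limma adjusted p = 0.0225). The calls of the other 3 depended on single libraries. MX2 (1.25, range 0.75 to 1.75) was lost without PC3 normoxia replicate 1, PC3 hypoxia replicate 2, LNCaP normoxia replicate 1, LNCaP normoxia replicate 2 or LNCaP hypoxia replicate 1. OASL (1.10, range 0.88 to 1.32) was lost without PC3 hypoxia replicate 1 or LNCaP hypoxia replicate 1. IFI27 (1.01, range 0.61 to 1.41) was lost without PC3 normoxia replicate 2, PC3 hypoxia replicate 1, LNCaP normoxia replicate 2, LNCaP hypoxia replicate 1 or LNCaP hypoxia replicate 2.

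Among 8 cytokine and NF-kB genes, 5 had a called difference. NFKBIA, the inhibitor that NF-kB induces, rose from 136 and 147 to 557 and 537 RPKM in LNCaP and had 117 and 147 RPKM in normoxia and 117 and 111 RPKM in hypoxia for PC3. Its difference was -2.16 (SE 0.21, limma adjusted p = 7.99e-04), whereas 2 other feedback genes went the opposite way. BIRC3 differed by 1.39 (SE 0.29, limma adjusted p = 0.0244) and TNFAIP3 by 1.07 (SE 0.35), the latter lost without PC3 normoxia replicate 2, PC3 hypoxia replicate 2, LNCaP normoxia replicate 1 or LNCaP hypoxia replicate 1 (range 0.73 to 1.40). CCL2, a monocyte chemokine, fell from 6.27 and 8.11 to 2.96 and 1.69 RPKM in PC3 and differed by -1.53 (SE 0.43, limma adjusted p = 0.068). The fifth, CCL20, fell in LNCaP at levels under 2 RPKM and differed by 2.92.

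TGF-beta pathway genes had 9 members. TGFB1, SMAD6 and SMAD7 rose in LNCaP and none of the 9 was called in PC3. SMAD6 and SMAD7 inhibit the pathway. SMAD6 had 3.16 and 3.58 RPKM in normoxia and 7.35 and 8.21 RPKM in hypoxia for LNCaP, and 2.32 and 3.30 RPKM in normoxia and 2.09 and 1.95 RPKM in hypoxia for PC3, a difference of -1.62 (SE 0.31, limma adjusted p = 0.0185). SMAD7 differed by -1.03 (SE 0.28) and lost its call without PC3 normoxia replicate 1, PC3 hypoxia replicate 2, LNCaP normoxia replicate 1 or LNCaP hypoxia replicate 2 (range -1.17 to -0.89). SMAD3 was called in neither line, at 0.24 and 0.00. Among 11 epithelial-mesenchymal genes, FN1 and SPARC were called toward LNCaP and VIM toward PC3. FN1, fibronectin, rose from 76.9 and 59.7 to 513 and 487 RPKM in LNCaP and had 28.2 and 32 RPKM in normoxia and 54.2 and 43.3 RPKM in hypoxia for PC3, a difference of -2.19 (SE 0.24, limma adjusted p = 0.0014). VIM, vimentin, rose from 120.4 and 126 to 353 and 328 RPKM in PC3 and had 34.3 and 37.5 RPKM in normoxia and 42.7 and 41.5 RPKM in hypoxia for LNCaP, a difference of 1.24 (SE 0.18, limma adjusted p = 0.00547), which was not called in the fit to all 16 libraries.

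ACPP, prostatic acid phosphatase, fell from 11.4 and 11.1 to 2.89 and 3.34 RPKM in LNCaP and had 1.04 and 0.590 RPKM in normoxia and 1.07 and 1.70 RPKM in hypoxia for PC3, a difference of 2.53 (SE 0.42, limma adjusted p = 0.00977). FKBP5, a chaperone of steroid receptors, had 66.2 and 58.2 RPKM in normoxia and 119 and 131 RPKM in hypoxia for LNCaP, and 4.86 and 5.39 RPKM in normoxia and 3.48 and 2.26 RPKM in hypoxia for PC3. That was a difference of -1.85 (SE 0.28, limma adjusted p = 0.00688), while its LNCaP response of 1.00 was not called without LNCaP normoxia replicate 2 or LNCaP hypoxia replicate 2. TMPRSS2 differed by 1.43 (SE 0.33) and KLK4 by -2.21 (SE 0.95), both at PC3 levels of 1.43 RPKM or less. TMPRSS2 was not called with a pseudocount of 1 (0.63). KLK4 was lost without PC3 normoxia replicate 1, PC3 hypoxia replicate 1, PC3 hypoxia replicate 2, LNCaP normoxia replicate 1, LNCaP normoxia replicate 2 or LNCaP hypoxia replicate 1 (range -3.60 to -0.82). Neuroendocrine genes had 5 members of 23 listed. ENO2 rose in both lines, as given above, and NCAM1 and MYT1 differed by -1.14 (SE 0.40) and -1.57 (SE 0.61). NCAM1 was lost without PC3 normoxia replicate 2, PC3 hypoxia replicate 2 or LNCaP normoxia replicate 1 (range -1.44 to -0.84) and MYT1 without PC3 normoxia replicate 2, PC3 hypoxia replicate 2, LNCaP normoxia replicate 1, LNCaP normoxia replicate 2 or LNCaP hypoxia replicate 1 (range -2.32 to -0.83). Neither NCAM1 nor MYT1 was called with a pseudocount of 1. ONECUT2 had 1.77 and 1.16 RPKM in normoxia and 0.648 and 0.550 RPKM in hypoxia for PC3, and 2.89 and 7.86 RPKM in normoxia and 11.5 and 3.09 RPKM in hypoxia for LNCaP, a difference of -1.46 (SE 0.83) that was not called.

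Of 15 clock genes, 2 were called for the difference, beside 8.74% of all members. PER1, a core repressor of the clock, rose from 11.8 and 16.1 to 57.8 and 56.7 RPKM in LNCaP and had 3.84 and 4.65 RPKM in normoxia and 4.67 and 2.74 RPKM in hypoxia for PC3, a difference of -2.28 (SE 0.36, limma adjusted p = 0.00755). PER3 differed in the same direction by -1.32 (SE 0.30, limma adjusted p = 0.0344), or -0.84 with a pseudocount of 1, where it was not called, and the other 13 clock genes were not called. ARRDC3, an adaptor of receptor turnover, rose from 11.8 and 10.5 to 35.5 and 34.0 RPKM in PC3 and had 29.1 and 23.6 RPKM in normoxia and 21.4 and 24.6 RPKM in hypoxia for LNCaP, a difference of 1.82 (SE 0.23, limma adjusted p = 0.00272). TXNIP, which restrains glucose uptake, differed by 1.04 (SE 0.29), a call lost without PC3 normoxia replicate 1, PC3 hypoxia replicate 1, LNCaP normoxia replicate 2 or LNCaP hypoxia replicate 2 (range 0.72 to 1.36). Of 10 Kruppel-like factors 0 were called for the difference by limma, with 4 at an unadjusted P and 1 at an adjusted p under 0.05, and KLF4 rose in both lines by 1.91 and 1.02, the LNCaP call being lost without LNCaP normoxia replicate 2. Cell cycle genes held 1 called member, beside 8.74% of all members called for the difference. No S phase gene of 40 was called in either line or for the difference, where 4 had an unadjusted limma P and 0 an adjusted p under 0.05. Of 54 G2/M genes only ANP32E was called, rising from 49.6 and 36.7 to 104 and 97.0 RPKM in LNCaP with 57.9 and 69.4 RPKM in normoxia and 74.3 and 53 RPKM in hypoxia for PC3, a difference of -1.25 (SE 0.29, limma adjusted p = 0.0346).

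The same difference was then taken in the 8 libraries with altered ONECUT2, which share no library with the controls. ONECUT2 itself was at 0.276 and 0.204 RPKM in normoxic and 0.125 and 0.214 RPKM in hypoxic siOC2 libraries, below every control PC3 library, while the table gives no ONECUT2 value (NA) for the OC2 libraries of LNCaP, so overexpression there could not be checked. Silencing in PC3 and overexpression in LNCaP are meant to change ONECUT2 in opposite directions, and each siOC2 replicate got its own siRNA, so that this set differs from the controls by more than its libraries. There the difference was called higher in PC3 for 0.438% and higher in LNCaP for 4.68% of members, and its median over all members was -0.33. Of the 699 members called higher in LNCaP in the controls, 641 (91.7%) had the same sign, beside 74.7% of all members, and 161 (23%) were called again. Of the 258 called higher in PC3, 170 (65.9%) had the same sign, beside 25.3% of all members, and 24 (9.3%) were called again. The altered libraries also counted toward the 1 RPKM limit, and 95 of the 699 and 41 of the 258 reached it only through them. Without these, 145 of 604 (24%) and 19 of 217 (8.76%) were called again. Of all 957, 0 had the opposite sign with an unadjusted limma P under 0.05.

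Of the 62 genes with a called difference and an adjusted p under 0.05 that were named by rank, class or list or had opposite calls, 52 had the same sign in the altered libraries and 22 were called again. ACKR3 (2.64), ACPP (2.35), C10orf10 (2.06) and NRN1 (1.82) were among those called again toward PC3, with the difference there in parentheses. Toward LNCaP they included NDUFA4L2 (-6.54), PLOD2 (-4.62), CYP1A1 (-3.42), STC1 (-3.39), AKR1C3 (-2.57), RRM2B (-2.32), PFKP (-1.83), ZMAT3 (-1.57) and FKBP5 (-1.35). ADAM28, C10orf10, DUSP2, LOXL2 and NDUFA4L2 reached the limit only through the altered libraries, and without these 5 genes 20 of 57 were called again. The difference was not called there for CA9 (0.47), IGFBP3 (0.81), HILPDA (0.75), PDGFB (0.30), TGFB1 (-0.86) or NFKBIA (-0.45). The sign turned, without a call, for 10 of the 62, among them DDIT4 (-0.38), TRIB3 (-0.53), VIM (-0.74), PDGFA (-0.85), ALDOC (-0.41), LOXL2 (-0.66) and PER1 (0.15). Where these libraries and the controls part, altered ONECUT2 and the other ways in which the libraries differ cannot be told apart. By list, the median difference of the HIF targets was -0.72 in the altered libraries, beside -0.33 over all members. That of the interferon-stimulated genes was 0.58, against 0.23 in the controls. For integrated stress response genes it was -0.25 and for endoplasmic reticulum chaperones -0.07, against 0.50 and 0.58 in the controls.

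Normoxic levels were compared between the lines as a description, in the normoxic siOC2 and OC2 libraries, which took no part in the calls. RPKM + 0.1 was divided by the upper quartile of the members in each library, since the tables were made separately and their upper quartiles over the members were 22.7 to 26.3 RPKM in control PC3 and 45.9 to 47.5 RPKM in control LNCaP. Of the 261 members that rose selectively in LNCaP, 178 (68.2%) had a higher scaled level in normoxic PC3, beside 54% of all members. The share was nearly as high, at 66.4%, for the 119 shared members with no called difference, and it was 59.5% for the 79 that fell selectively in LNCaP. For the 77 that rose selectively in PC3 the share was 62.3%, and for the 130 that fell selectively in PC3 it was 45.4%. The median log2 ratio of PC3 over LNCaP was 0.97 for members that rose selectively in LNCaP, 0.55 for the shared ones and 0.14 over all members.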

How the data were processed

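RNA-Seq of 16 libraries from PC3 and LNCaP cells was used, 8 per line, and the comparison rests on the 8 control libraries. The 12 ChIP-Seq samples of the series were not analysed here. The libraries were stranded and poly(A)-selected. Per the labels and the study's methods, the authors aligned the reads with STAR 2.4.2a to GRCh37 (hg19) and made gene RPKM with Cufflinks 2.1.1, and 1 deposited table of RPKM per line was used as it stands. Whether counting used strand was not stated. Read totals are unknown for these tables, so depth is given only as a ratio between libraries, from the steps between low values.

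Both tables were joined by gene symbol. Members reached 1 RPKM in 2 or more libraries of each table. On log2(RPKM + 0.1), which understates changes of low genes, limma 3.58.1 in R 4.3.3 was fitted to 4 groups of 2 with a mean-variance trend. The contrasts were hypoxia minus normoxia in each line and the PC3 change minus the LNCaP change. The rule for calls, a fold over 2 with an unadjusted P under 0.05, follows the study's own, and Benjamini-Hochberg adjusted p over all members are given beside it. An exact rank test of 2 libraries against 2 cannot go below 0.33, so no such test was run. The script was tested on simulated data.

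The members and the gene lists were chosen with earlier results of these data known, so no list is independent support. Named genes have no exact 0 and a mean of at least 1 RPKM in the control libraries. They are the 8 largest called differences in each direction whose library-pair changes do not overlap between the lines (40.3% of all members do not overlap), the 6 largest shared increases and 4 largest shared decreases, the 6 largest opposite responses and, per list, up to 4 called differences, the largest shared response and examples not called. BHLHE40, CCL20, ONECUT2, PFKFB3, PLOD1, SMAD3 and the other 9 opposite genes were named after their values were seen. Some listed items are not reported here.

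Same-numbered libraries of a line did not deviate together (r = -0.208 in PC3 and 0.004 in LNCaP), and the reported fit did not pair them. With 2 libraries per group, r rests on 1 deviation per group and cannot exclude a pairing. The negative r in PC3 means that normoxia replicate 1 deviated weakly together with hypoxia replicate 2. Those are the PC3 libraries of lowest relative depth (0.418 and 0.382), and a link to depth was not tested. Alternatives were 1 as the pseudocount, a 5 RPKM limit, no limit at all, upper-quartile scaling, all 16 libraries in the fit, weights per line, separate fits per line, a replicate block, adjusted p alone, exact 0 as missing and leaving out each library. The block with crossed numbers was chosen after seeing the data. Gene positions are from GENCODE on GRCh37, in another release than the authors used. Columns with no sample numbered 0.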

Additional observations from a re-analysis of the deposited data

Results flagged for a closer look

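A test of the difference between the responses of the lines, the limma contrast itself, singled out 62 genes. They are the genes named by rank, class or list with a called difference and an adjusted p under 0.05, together with the other genes whose calls were opposite. With 2 libraries per group no test for a stray library was possible. Values in parentheses are the log2 response in PC3 minus that in LNCaP.

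Of the 62, 30 responded higher in PC3. The difference was over 8-fold for ACKR3 (5.71), S100P (4.35), CTC-429P9.4 (4.10), TVP23C-CDRT4 (3.86), NRN1 (3.81), C10orf10 (3.59), IGFBP3 (3.26) and CA9 (3.17). It lay between 4-fold and 8-fold for ARG2 (2.78), FERMT1 (2.53), ACPP (2.53), ITGA2 (2.46), HILPDA (2.34), MT1G (2.32), FABP6 (2.23), OAS2 (2.12) and DDIT4 (2.00), and below or at 4-fold for TRIB3 (1.88), PDGFB (1.82), ARRDC3 (1.82), PDGFA (1.81), ALDOC (1.46), TMPRSS2 (1.43), BIRC3 (1.39), LOXL2 (1.37), ATF5 (1.33), NDRG1 (1.30), VIM (1.24), UGP2 (1.07) and SQLE (1.06). With a pseudocount of 1 in place of 0.1, the differences of S100P (2.79), NRN1 (2.19), CTC-429P9.4 (2.05) and TVP23C-CDRT4 (1.25) were below 8-fold.

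The other 32 responded higher in LNCaP. The difference was over 8-fold for CYP1A1 (-6.02), AL035252.1 (-4.55), TGFB1 (-4.48), NDUFA4L2 (-4.18), PLOD2 (-4.14), RAB31 (-4.04), ADAM28 (-3.57), DUSP2 (-3.54) and SPARC (-3.03). It lay between 4-fold and 8-fold for ID3 (-2.88), SLC25A29 (-2.82), BMF (-2.69), C8orf4 (-2.65), STC1 (-2.45), AKR1C3 (-2.29), PER1 (-2.28), FN1 (-2.19), SLC16A10 (-2.19), NFKBIA (-2.16) and MPDZ (-2.10), and below 4-fold for ZMAT3 (-1.97), FKBP5 (-1.85), RRM2B (-1.72), SMAD6 (-1.62), EGLN3 (-1.33), PER3 (-1.32), ELOVL5 (-1.29), ANP32E (-1.25), VEGFA (-1.19), SLC4A2 (-1.14), HIF1A (-1.12) and PFKP (-1.04). With a pseudocount of 1, the differences of RAB31 (-2.88), ADAM28 (-2.34), DUSP2 (-2.32), TGFB1 (-2.0), SPARC (-1.90) and AL035252.1 (-1.51) were below 8-fold.

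Among the 62, 5 lost the call without at least 1 library, and these were HIF1A, PFKP, SLC4A2, SQLE and UGP2. The other 9 opposite genes were not described above. ARG2, which hydrolyses arginine, rose by 1.18 in PC3 and fell by 1.61 in LNCaP on the log2 scale. ITGA2, an integrin subunit of collagen receptors, rose by 1.19 and fell by 1.27, FERMT1, an activator of integrins, rose by 1.36 and fell by 1.17, and FABP6, a bile acid carrier, rose by 1.00 and fell by 1.23. The reverse was seen for BMF, a proapoptotic BCL2 relative, which fell by 1.32 in PC3 and rose by 1.37 in LNCaP, and for SLC25A29, a mitochondrial carrier, which fell by 1.70 and rose by 1.12. C8orf4 fell by 1.43 and rose by 1.22, SLC16A10, an amino acid transporter, fell by 1.08 and rose by 1.11, and MPDZ, a scaffold protein, fell by 1.09 and rose by 1.01.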

How the results depend on the processing

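No call of the difference reversed under any alternative. The blocks, weights per line, separate fits, adjusted p and fit to all 16 libraries leave the estimated difference unchanged, so no reversal was possible there. The other settings reuse the same control libraries. The counts below are genes called higher in PC3 and then higher in LNCaP for the difference, and then the calls of each line. A pseudocount of 1 gave 423 differences higher in LNCaP, 121 genes lower in hypoxic PC3, 112 lower in hypoxic LNCaP, 10 shared decreases, 171 that rose selectively in LNCaP and 8 opposite. With no limit on low values there were 546 and 1080 differences, 453 up and 535 down in PC3, 412 down in LNCaP, 38 shared decreases, 180 that rose selectively in PC3, 438 that rose selectively in LNCaP and 34 opposite. A limit of 5 RPKM, which tested 7640 genes, left 125 and 319 differences, 169 up and 130 down in PC3, 291 up and 94 down in LNCaP, 79 shared increases, 12 shared decreases, 41 and 120 that rose selectively in PC3 and LNCaP and 7 opposite. An adjusted p under 0.05 with no fold limit gave 668 up and 963 down in PC3, 1098 up and 755 down in LNCaP, 277 and 173 shared and 56 opposite. These counts rest on 1 spread pooled over both lines, with 1631 members in PC3 and 1853 in LNCaP in either direction. With weights per line those were 645 and 3456, and with separate fits per line 1065 and 2970. The adjusted counts of the lines are therefore not comparable. The fit to all 16 libraries gave 15 shared decreases.

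Leaving out 1 library at a time gave 213 to 409 differences higher in PC3 and 594 to 963 higher in LNCaP. PC3 had 264 to 417 up and 305 to 544 down, and LNCaP 532 to 583 up and 189 to 312 down. Shared increases numbered 110 to 145 and shared decreases 17 to 31, selective increases 72 to 136 in PC3 and 219 to 292 in LNCaP, and opposite calls 16 to 30. Adjusted p under 0.05 for the difference numbered 695 in the reported fit and 209 to 934 in these. The replicate block gave 288 and 758 differences and the crossed block, chosen after seeing the data, 267 and 710. The replicate block ended no call of a named gene, and the crossed block ended those of IFI27, MX2 and RAB3IL1. Of the 75 named genes with a called difference, 22 lost it without at least 1 library, 18 in the fit to all 16 libraries and 15 with a pseudocount of 1. That pseudocount also made the difference smaller by over 1.5 times for ADAM28 (-2.34), ARNT2 (-0.78), KLK4 (-1.23), LOXL3 (-0.64), MX2 (0.71), MYT1 (-0.78), NCAM1 (-0.45), NRN1 (2.19), PPP1R3B (0.28), RAB3IL1 (-0.27), STC1 (-1.60) and ZCCHC18 (-2.20). The same held for AKR1C3, AL035252.1, CTC-429P9.4, DUSP2, PER3, S100P, SPARC, TGFB1, TMPRSS2 and TVP23C-CDRT4, whose values are given above. Of named genes with no called difference, KLF4 gained the call without PC3 hypoxia replicate 2 (1.06) and ENO2 without LNCaP normoxia replicate 2 (given above). SCNN1G gained it without LNCaP hypoxia replicate 1 (1.01) and ZMYM6NB without PC3 hypoxia replicate 1 (1.62). The cause was not tested. With 2 libraries per group and PC3 depths that differ by over 2-fold, the PC3 response is the less precise of the 2, and genes below the 1 RPKM limit in either line were not compared.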

Other observations

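Some listed genes reached the limit in 1 line only and so entered no comparison. In LNCaP, KLK3, which encodes prostate-specific antigen, had 1995 and 2045 RPKM in normoxia and 3997 and 3718 RPKM in hypoxia, and it was listed at 0 in all 4 control PC3 libraries. TRPM8, a cation channel, had 7.21 and 5.37 RPKM in normoxic and 45.0 and 43.7 RPKM in hypoxic LNCaP, and at most 0.747 RPKM in control PC3. SYT4, a synaptotagmin of vesicle release, had 19.0 and 15.6 RPKM in normoxic and 54.1 and 49.6 RPKM in hypoxic LNCaP and was listed at 0 in control PC3. In all 3 genes both hypoxic libraries stood above both normoxic ones.

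In PC3, ADM, a vasodilator peptide, had 2.36 and 2.11 RPKM in normoxia and 50.1 and 47.1 RPKM in hypoxia, against at most 0.664 RPKM in control LNCaP. TGFBI, a matrix protein that TGF-beta induces, had 109 and 114 RPKM in normoxic and 213 and 228 RPKM in hypoxic PC3, against at most 0.323 RPKM in LNCaP. PLIN2, a lipid droplet coat protein, had 8.10 and 9.49 RPKM in normoxic and 16.4 and 12.9 RPKM in hypoxic PC3, against at most 0.215 RPKM in LNCaP. These genes were chosen after their values were seen and were not tested.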
